A study of Solanum lycopersicum with 6 samples.

Results

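Exonic regions that lost CHG methylation in tomato embryos without a functional SlNRPD1 gene are described here. The members are the 1461 regions that the authors annotated to an exon and listed with a lower CHG methylation mean in nrpd1 than in WT embryos. They were chosen by the same pair of means that is reported below, so their CHG levels are a description and are not tested. The authors listed 132092 regions over the CG, CHG and CHH contexts, 42277 of them in the CHG context (H stands for A, C or T), and 88% of the CHG regions were lower in nrpd1. Of the 1687 CHG regions in exons, 86.6% were lower in nrpd1, and the other 226 were higher. The members made up 3.93% of the 37203 CHG losses and covered 578.2 kb.

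Both groups were embryos of the dwarf cultivar Micro-Tom, taken 21 days after flowering, from SlNRPD1 knockout (nrpd1) and from WT plants, with 3 bisulfite libraries each. By its title, the study asked what RNA polymerase IV does for the tomato embryo through non-CG methylation. The labels give neither the knockout allele nor the number of independent lines, nor whether each library was made from other plants. The deposited tables hold 1 mean per genotype and region, so the spread between libraries cannot be computed. The sources used here give no read depth or bisulfite conversion rate, so a single region has no interval and the genotypes could not be tested against each other.

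NRPD1 forms the catalytic core of RNA polymerase IV, which transcribes silent sequence into short precursors of small interfering RNAs, and these guide methylation to DNA. CHG methylation is kept in place after replication largely by chromomethylases of the CMT3 type, which bind methylated histone H3 lysine 9, a mark whose own writers bind methylated DNA. CHH methylation is asymmetric and has to be set anew after each replication, either by the small RNA pathway or by a second chromomethylase. Exons of active genes often carry CG methylation alone. Methylation at CHG and CHH sites of an exon is usual for transposons and silenced genes, and in Arabidopsis the histone demethylase IBM1 keeps it out of active genes.

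CHG methylation in the members was at an intermediate level in WT embryos and at less than 50% of that level in most nrpd1 counterparts. The median was 20.8% in nrpd1, with 50% of regions between 12.5% and 33.5%, and 49.4% in WT, with 50% of regions between 37.0% and 63.2%. The SD over the medians of the 12 chromosomes was 2.66 points in nrpd1 and 3.56 points in WT. Chromosomes are parts of one genome read in the same libraries and are no replicates. The median difference was -25.1 points (SD 1.09 over chromosomes), and the extremes were -63.3 and -10.3 points.

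The share of the WT level that was left in nrpd1 had a median of 43.8% (SD 2.41 points over chromosomes). It was below 50% in 925 members (63.3%) and below 20% in 35 members (2.40%). Over all CHG losses the median share left was 52.6%, from a WT median of 67.9% against 49.4% in the members. In 250 members (17.1%) the nrpd1 level was below 10%, whereas 2419 of all CHG losses (6.50%) were that low. Those counts were not matched on WT level. Among losses below 40% in WT, the nrpd1 median was 9.94% in exons, 10.8% in introns, 9.86% in promoters and 10.1% in distal sequence. Exonic CHG methylation was therefore reduced but still present in most members. A level between 0% and 100% does not tell whether all embryo cells kept some methylated sites or some cells kept all of them.

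**Figure D1:**
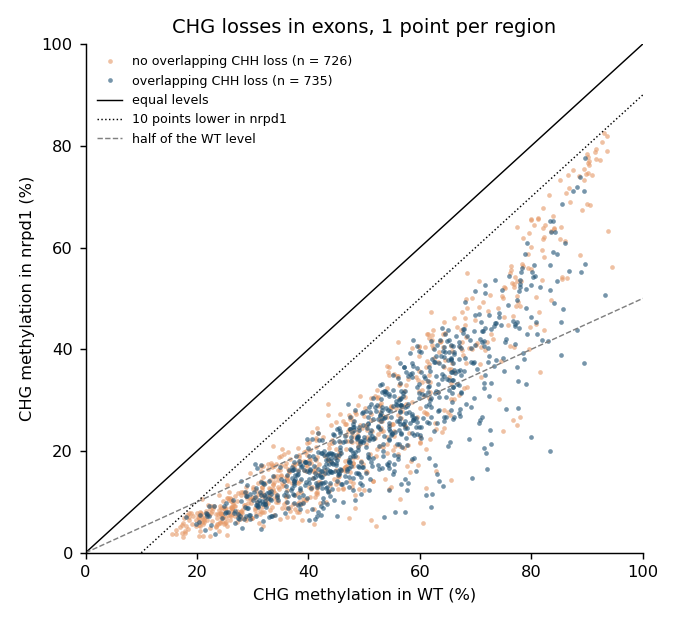
CHG methylation of the 1461 exonic losses, as the authors' mean in nrpd1 (vertical axis, %) against that in WT (horizontal axis, %), with 1 point per region. Blue points (n = 735) share at least 1 bp with a CHH loss and orange points (n = 726) do not. The solid line marks equal levels, the dotted line a difference of 10 points and the dashed line 50% of the WT level. Orange points prevail below a WT level of 40% and above 80%.

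No member had a difference smaller than 10.3 points, and no CHG region in an exon that was higher in nrpd1 differed by less than 10.1 points. The members nearest to that limit had unlike levels. The region chr4:39067023-39067151, with 17 CHG sites, was at 10.7% in nrpd1 and 21.0% in WT. The region chr7:61076739-61076838, with 6 CHG sites, was at 82.4% in nrpd1 and 93.1% in WT, and kept the largest share of its WT level of all members (88.5%). On the other side of the limit, chr3:47637586-47637690 in exon 4 of its gene was at 14.7% in nrpd1 and 4.57% in WT.

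The largest loss lay in exon 1 of the 7 exons of Solyc11g010730.3, a gene on the minus strand of chromosome 11. Its region chr11:3805209-3806036 spans 828 bp with 30 CHG sites, and had 19.9% CHG methylation in nrpd1 embryos against 83.3% in WT embryos. A CHH loss covered all of it, with 10.4% CHH methylation in nrpd1 against 44.4% in WT, and a CG loss covered 277 bp, with 26.0% CG methylation in nrpd1 against 67.7% in WT. All 3 contexts were thus lower in nrpd1 within these 828 bp, and each kept less than 50% of its WT level, although the CG loss was itself annotated to an intron. The 9 next largest losses lay on chromosomes 5, 8, 9 and 12, with differences between -57.1 and -51.4 points. Of those 9, 7 shared sequence with a CHH loss and 4 with a CG loss, and 1 (chr12:2557371-2557559, at 25.1% in nrpd1 and 77.4% in WT) with neither. That last region had 173 of its 189 bp beyond the gene end.

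The lowest share left among all members was 9.64%, at chr8:1708453-1708670 in exon 1 of 4. CHG methylation there was 5.85% in nrpd1 and 60.6% in WT. No CHH loss touched that region, and the CG loss around it kept 48.5% CG methylation in nrpd1 against 86.2% in WT. Among members with a WT level of at least 50%, the next lowest shares left were 9.93%, 12.5%, 13.1% and 14.1%. The first of these, chr7:4010344-4010740, lay in the second and last exon of its gene, with 5.18% in nrpd1 and 52.2% in WT, and shared sequence with neither a CHH nor a CG loss. It had 38 of its 397 bp beyond the gene end.

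The widest member, chr4:64373260-64375673, spanned 2414 bp with 132 CHG sites in exon 5 of 6. It was at 14.4% in nrpd1 and 65.7% in WT, and no CHH or CG loss was listed anywhere along it. The median member spanned 340 bp with 16 CHG sites, and 65 members (4.45%) were wider than 1 kb.

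Members differed from CHG losses elsewhere in their WT level more than in the points that they lost. CHG losses in introns had medians of 25.2% in nrpd1 and 55.8% in WT (n = 2584), those in promoters 33.5% in nrpd1 and 68.2% in WT (n = 11769), and those in distal intergenic sequence 38.2% in nrpd1 and 70.7% in WT (n = 20505). The exonic WT median was lower than the intronic one by 5.88 ± 3.03 points (mean ± SD of the differences on 12 chromosomes), than the promoter one by 18.8 ± 3.76 points and than the distal one by 21.4 ± 3.22 points, each on 12 of 12 chromosomes. The median number of points lost was smaller in exons than in promoters (by 4.24 ± 1.15 points) and in distal sequence (by 2.64 ± 1.27 points), again on 12 of 12 chromosomes. Against introns it differed by 0.53 ± 1.38 points, within the spread, and was smaller on 6 of 12. Density of CHG sites was higher in exons, with a median of 5.21 per 100 bp against 4.81 in introns, 3.51 in promoters and 3.77 in distal sequence, on 12 of 12 chromosomes in each comparison.

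**Figure D2:**
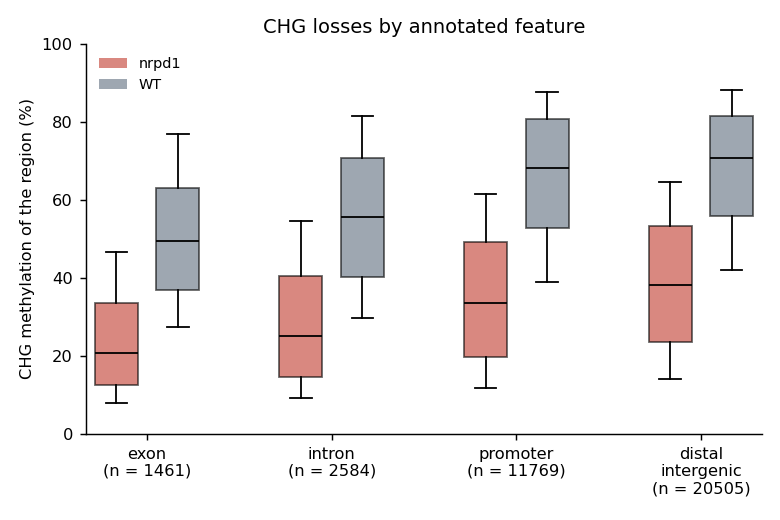
CHG methylation (%) of CHG losses by annotated feature, nrpd1 (red) left of WT (grey). Boxes span the middle 50% of regions around the median, and whiskers reach the 10% and 90% quantiles of regions. Boxes show spread over regions and not over libraries. Exonic losses have the lowest medians in both genotypes, at 20.8% in nrpd1 and 49.4% in WT.

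A smaller share of the WT level was left in exons (median 43.8%) than in introns (47.3%), promoters (50.5%) and distal sequence (55.3%). This order followed the WT level of the regions. With regions averaged over 10-point classes of WT level and weighted by the exonic regions, the difference was -0.113 points against introns, against -3.46 points unmatched. It was 3.85 points against promoters (-6.70 points unmatched) and 1.70 points against distal sequence (-11.5 points unmatched), so that both signs turned. At a like WT level, exonic losses kept slightly more of their CHG methylation than promoter losses in all 9 classes.

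The pattern also held inside single genes. In the 260 genes with a CHG loss in an exon and in an intron, the exonic level had a median of 22.4% in nrpd1 and 51.3% in WT, and the intronic level 30.8% in nrpd1 and 59.4% in WT. The exonic WT level was lower in 170 of these genes (65.4%), and the points lost were fewer in exons in 131 and more in 129. In the 579 genes with a loss in an exon and in the promoter, the exonic medians were 19.9% in nrpd1 and 49.3% in WT, and the promoter medians 30.5% in nrpd1 and 63.6% in WT. The exonic WT level was lower in 397 of them (68.6%). Here the points lost were fewer in exons in 365 genes and more in 214. The median exonic minus promoter value was -11.8 points for the WT level and 3.35 points for the difference.

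Listed CHH losses reached only part of the members. Of the 1461 members, 735 (50.3%, Wilson 95% interval 47.7% to 52.9%) shared at least 1 bp with a listed CHH loss. A CHH gain met 0 members, which allows a share of up to 0.205% (3 counts of 1461). It also met 0 of all 37203 CHG losses, so this absence was not particular to exons. Over all CHG losses 75.7% shared sequence with a CHH loss. The share was 60.2% in introns, 83.7% in promoters and 74.9% in distal sequence. Such intervals reflect counting error alone and take each region as independent of its neighbours. On chromosomes, the exonic share was lower than the intronic one by 11.5 ± 8.85 points (on 11 of 12), than the promoter one by 33.7 ± 7.75 points and than the distal one by 25.3 ± 9.92 points (on 12 of 12 each).

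Matching changed the size of these gaps. Over classes of equal WT level the exonic CHH share was lower by 7.51 points than in introns, by 22.1 points than in promoters and by 13.8 points than in distal sequence, where the unmatched differences, exons minus the other feature, were -9.87, -33.3 and -24.6 points. Over classes of region width it was lower by 12.6 points, 33.1 points and 25.5 points in the same order, although 3 of the 8 width classes had a higher share in exons than in introns. Other differences between the features were not tested. A CHH region was listed only where the genotypes differed by at least 10 points, so an exon with little CHH methylation in WT could not enter that list, and absence of a listed loss does not show an equal CHH level. With differences of at least 20 points required in every table, the CHH share of exons was 10.3%, and with that limit on the CHG regions alone it was 59.0%.

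**Figure D3:**
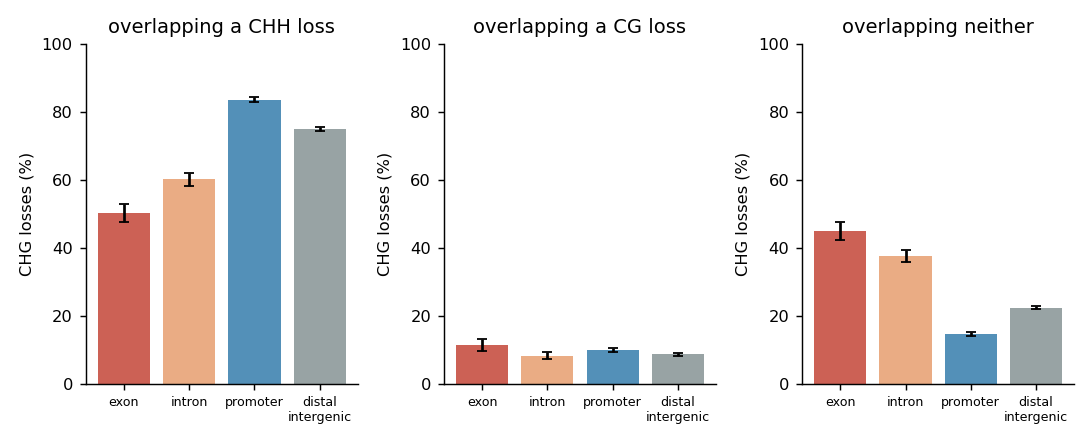
Share of CHG losses (%) in exons (n = 1461), introns (n = 2584), promoters (n = 11769) and distal intergenic sequence (n = 20505) that overlap a CHH loss, a CG loss, or neither, by at least 1 bp. Error bars are Wilson 95% intervals for counting error. Exons have the lowest CHH bar (50.3%) and the highest bar for neither (44.9%).

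The 724 CHH losses that met an exonic CHG loss were low in both genotypes. Their CHH methylation had a median of 5.24% in nrpd1 and 19.7% in WT, so that 25.8% of the WT level was left. All 73614 CHH losses had medians of 8.00% in nrpd1 and 25.1% in WT, with 32.0% left. CHH losses that met a CHG loss in other features had similar shares left, at 26.6% in introns, 27.2% in promoters and 28.3% in distal sequence. A share left below that of all CHH losses was thus not particular to exons. The WT median was higher in these features than in exons, at 22.5%, 27.4% and 26.8% in the same order. The 735 members themselves kept a median of 44.3% of their CHG methylation. That share is not comparable with the CHH share of 25.8%. A listed loss of at least 10 points leaves little room for a large share where the WT level is low. The 724 CHH losses covered a median of 95% of the member, and 527 of them (72.8%) were themselves annotated to an exon. Across the 735 members, the CHG and CHH differences had a Pearson r of 0.273 and a Spearman rho of 0.214, as a description of regions that share libraries.

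Members with a CHH loss were wider and more methylated than those without. With a CHH loss (n = 735), the median CHG level was 23.0% in nrpd1 and 53.2% in WT, and the median width 430 bp. Without one (n = 726), it was 18.1% in nrpd1 and 45.4% in WT, and the width 262.5 bp. Density of CHG sites was lower with a CHH loss, at 4.67 per 100 bp against 6.16 without. Width moved with the overlap itself: a CHH loss met 29.0% of the members under 200 bp, 48.4% of those between 200 and 500 bp and 76.5% of wider ones. Of the 726 members without a CHH loss, 316 (43.5%) had one within 1 kb and 75 had none within 5 kb, with a median distance of 1158.5 bp.

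The share of members with a CHH loss was highest at intermediate WT CHG levels. It was 23.7% for members at 20% to 30% CHG methylation in WT, 58.3% at 40% to 50%, 62.7% at 50% to 60%, 56.9% at 70% to 80% and 46.1% at 80% to 90%. Above 90% it was 5.26%, or 1 of 19 members (Wilson 95% interval 0.935% to 24.6%). Promoter losses showed no such decline, with 94.3% at 80% to 90% and 97.9% above 90%, and neither did distal losses, with 81.7% and 92.0%. Intronic losses lay between them, with 67.3% at 80% to 90% and 50% above 90%.

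**Figure D4:**
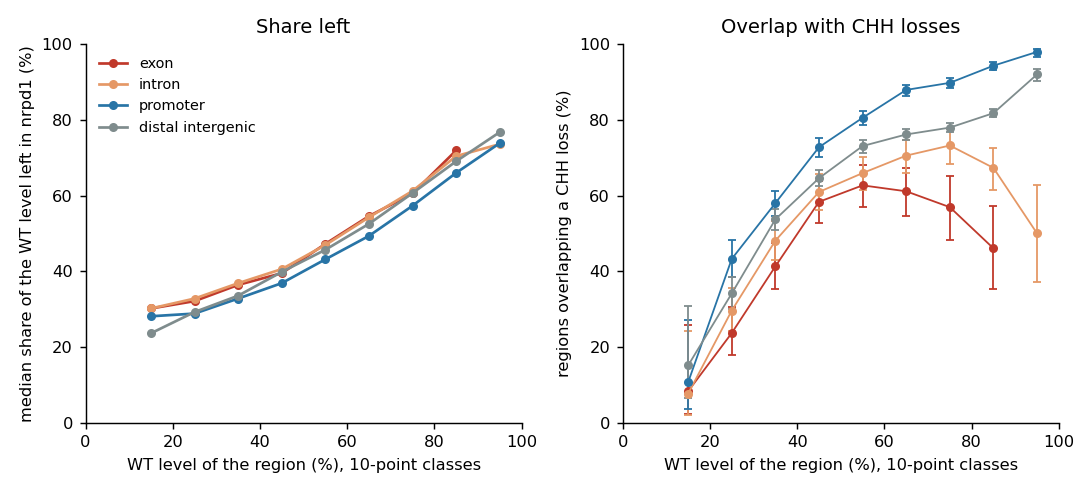
CHG losses in 10-point classes of their WT CHG level (horizontal axis, %), by feature. The left panel gives the median share of the WT level left in nrpd1 (%), and the right panel the share of regions overlapping a CHH loss (%) with Wilson 95% intervals for counting error. Classes under 20 regions are not drawn, which removes the 19 exonic regions above 90%. The lines of the left panel rise together. The promoter line lies below the exonic one in every class drawn for exons, with 66.0% against 71.9% at 80% to 90%. In the right panel the exonic share is 62.7% at 50% to 60% and 46.1% at 80% to 90%.

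The 59 members with at least 80% CHG methylation in WT and no CHH loss kept most of it in nrpd1. Their medians were 67.3% in nrpd1 and 86.5% in WT, with 79.4% of the WT level left. The 36 members of the same WT level with a CHH loss had medians of 55.3% in nrpd1 and 84.4% in WT, with 65.7% left. CHG sites were denser without a CHH loss, at 7.81 per 100 bp against 4.61 with one. The 59 members lay in 52 genes, and 16 of those placed on a chromosome (27.6%, interval 17.8% to 40.2%) lay in its middle 60%, against 2 of the 36 (5.56%, interval 1.54% to 18.1%). The limit of 80% was chosen after the levels had been seen, and the groups are small.

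At the other end, the 444 members below 40% in WT had medians of 9.94% in nrpd1 and 31.1% in WT. They kept 34.1% of the WT level, and 32.7% of them met a CHH loss. The 441 members at 60% or above had medians of 41.0% in nrpd1 and 70.6% in WT, kept 59.3%, and 54.9% of them met a CHH loss. The number of points lost differed less, with medians of -19.6 in the low class and -28.4 in the high class. A listed loss of at least 10 points leaves less room for a large share in the low class. The shares left in these classes are therefore not directly comparable.

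Listed CG losses reached few members, though slightly more of them than of CHG losses in general. A CG loss met 165 members (11.3%, interval 9.77% to 13.02%), against 9.08% of all CHG losses. The share was 8.17% in introns, 9.92% in promoters and 8.63% in distal sequence. The exonic share exceeded the intronic one by 3.01 ± 2.82 points, on 10 of 12 chromosomes, and the promoter one by 1.11 ± 3.17 points, on 6 of 12, which is within the spread. Against distal sequence it was higher by 2.45 ± 3.08 points, on 10 of 12 chromosomes, but by 0.446 points once regions were matched on WT level. With at least 50% of the member covered, a CG loss met 5.82% of members. The CG losses that met a member had medians of 48.3% in nrpd1 and 79.9% in WT, with 61.8% left. All listed CG losses had medians of 44.1% in nrpd1 and 74.7% in WT, with 60.8% left. That share was thus not particular to exons. It is not directly comparable with the CHG share, because the WT levels differ.

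The 165 members with a CG loss kept a median of 33.8% of their CHG methylation, and those without one 44.5%. The 95 members that met both a CHH and a CG loss had medians of 19.2% in nrpd1 and 54.4% in WT, with 36.8% left. The 70 members that met a CG loss alone had 10.7% in nrpd1 and 38.7% in WT, with 30.3% left. The 640 members that met a CHH loss alone kept 45.1%, and the 656 (44.9%) that met neither kept 43.5%, with 18.95% in nrpd1 and 46.3% in WT. A CG loss, where there was one, thus went with a smaller share of CHG methylation left than a CHH loss alone did. These groups were not matched on WT level, which the share left follows. The WT median was 53.2% with a CHH loss alone, close to that of the 95 members but above that of the 70. The part of the WT level was not tested.

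Members with losses in all 3 contexts could differ in which context lost most. At chr8:58528013-58528862, in the last of 4 exons, CHG methylation was 23.1% in nrpd1 and 54.8% in WT. A CG loss that shared 52 bp with it was at 11.3% in nrpd1 and 88.1% in WT. That CG loss held 4 CG sites, the fewest of any listed region. Of the CHG region, 56 bp lay inside the gene and 794 bp beyond its end. At chr11:52051326-52052062, in the second of 2 exons, CHG methylation was 14.0% in nrpd1 and 63.4% in WT. The overlapping CHH loss was at 8.70% in nrpd1 and 44.9% in WT, and the CG loss at 40.6% in nrpd1 and 64.3% in WT. The region chr3:62564006-62565987 was annotated to the second of 2 exons but had 1847 of its 1982 bp beyond the gene end. Its CHG methylation was 13.1% in nrpd1 and 64.1% in WT. The overlapping CHH loss was at 5.01% in nrpd1 and 31.7% in WT, and the CG loss at 55.3% in nrpd1 and 89.0% in WT. In both the chr11 and the chr3 region, CHG methylation fell by the most points.

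A CG gain met 3 members (0.205%), against 0.121% of all CHG losses. At chr1:85327058-85327297, in exon 2 of 5, CHG methylation was 43.8% in nrpd1 and 82.3% in WT, while CG methylation was 73.4% in nrpd1 and 34.5% in WT over 227 shared bp. At chr7:60795163-60795546, in exon 1 of 2, CHG methylation was 16.5% in nrpd1 and 40.3% in WT, and CG methylation 56.0% in nrpd1 and 23.4% in WT. At chr10:62201223-62201422 the regions shared 4 bp only. In the 50% of each table with the larger region statistic no member met a CG gain (0%), and within 200 bp the share was 0.616%. CG and CHG methylation differed in opposite directions in these exons.

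Members lay throughout the gene and were rare close to its start. Exons were counted 5′ to 3′ for this purpose, because the deposited exon numbers follow the coordinate on either strand (Pearson r of exon number with coordinate 0.747 for exonic regions of plus-strand genes and 0.802 for those of minus-strand genes). Internal exons held 811 members (55.5%), last exons 420 (28.7%), first exons 124 (8.49%) and genes with a single exon 94 (6.43%), while 12 could not be placed. As numbered in the tables, last exons would hold 12.7%. Regions from -2000 bp to 250 bp around a transcription start were annotated as promoter, which takes the starts of first exons out of the exon class. The amount of exon sequence of each kind is not known here, so these shares do not show a preference.

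Levels in first and internal exons were close, and those in last exons and single-exon genes were somewhat higher. The medians were 19.7% in nrpd1 and 48.0% in WT in first exons, 19.3% in nrpd1 and 47.6% in WT in internal exons, and 23.4% in nrpd1 and 52.8% in WT in last exons. Genes with a single exon had 27.7% in nrpd1 and 56.5% in WT, with 53.8% left. The SD over chromosome medians was 4.33 points in nrpd1 and 5.05 points in WT for last exons. For single-exon genes it was 13.2 points in nrpd1 and 11.1 points in WT, so these gaps were within or close to that spread. Many regions reached beyond the gene: 193 of 420 in last exons and 61 of 94 in single-exon genes. In internal exons 6 of 811 did so. In first exons 0 of 124 did, but regions around the gene start were classed as promoter, so the annotation fixed this. The higher levels thus include flanking sequence, and the part of that sequence was not tested. A CHH loss met 51.6%, 49.9% and 52.9% of members in first, internal and last exons, and 40.4% in single-exon genes. A CG loss met 28 of the 124 members in first exons (22.6%, interval 16.1% to 30.7%), against 80 in internal exons (9.86%, interval 8.00% to 12.1%) and 48 in last exons (11.4%, interval 8.73% to 14.8%).

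Of the 1449 members with gene coordinates, 1259 had their midpoint inside the gene, at a median of 51.9% of its length, and intronic losses had theirs at 40.8%. With each gene cut into 10 equal parts, the part next to the start held 2.38% of these exonic and 4.91% of intronic midpoints. The part next to the end held 8.74% of exonic and 1.44% of intronic ones. A gene ends in an exon, and the amount of exon and intron sequence in each part is not known here. These shares therefore do not show a preference. Another 884 CHG losses were annotated to neither exon, intron, promoter nor distal sequence and are not counted here. The other 190 members had their midpoint beyond the gene end. None had it before the gene start, but regions around the start were classed as promoter, so the annotation fixed this. In all, 260 members (17.8%) reached beyond their gene, 193 of them from the last exon and 61 from a single exon, so that part of what is counted as exonic was flanking sequence. The 1189 members wholly inside their gene had medians of 20.1% in nrpd1 and 48.1% in WT, a CHH loss met 47.7% of them, and 19.1% of them lay in last exons.

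**Figure D5:**
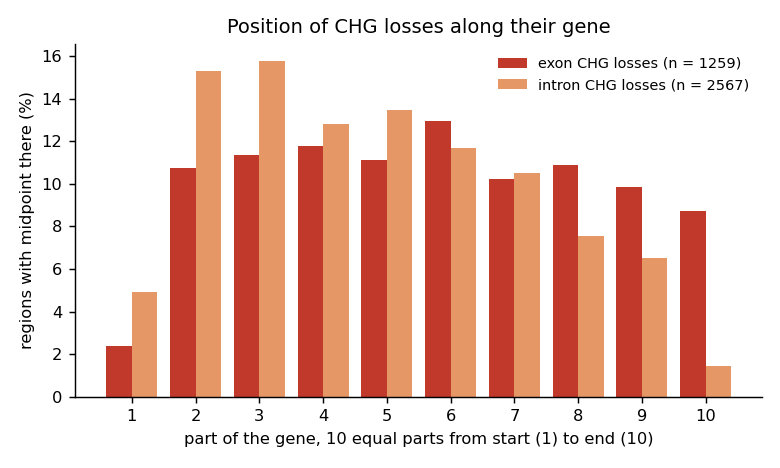
Position of region midpoints along their gene, in 10 equal parts from the start (1) to the end (10), as a percentage of the exonic CHG losses (red, n = 1259) and the intronic CHG losses (orange, n = 2567) with a midpoint inside the gene. The part next to the end holds 8.74% of exonic and 1.44% of intronic midpoints. A gene ends in an exon, so this contrast does not show a preference.

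The members fell into 1300 genes, of which 1156 held 1 member, 127 held 2 and 17 held 3. The gene with 3 members and the largest summed loss was Solyc05g008310.4, 4912 bp long on the minus strand of chromosome 5. In its exon 1 (chr5:2735600-2736298) CHG methylation was 21.8% in nrpd1 and 65.4% in WT. In exon 5 (chr5:2733847-2735031) it was 18.7% in nrpd1 and 61.7% in WT, and in the region annotated to exon 7, the last (chr5:2732133-2732901), 35.9% in nrpd1 and 67.1% in WT. WT levels of the 3 regions were close, and the third kept the most in nrpd1, but 590 of its 769 bp lay beyond the gene end. CHH losses met all 3 regions, with 3.20%, 4.86% and 5.70% in nrpd1 against 19.5%, 23.2% and 20.9% in WT for exons 1, 5 and 7. Over the 144 genes with more than 1 member, WT levels of members of the same gene ranged over a median of 11.4 points, and differences over 4.91 points.

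Genes with an exonic CHG loss often carried other losses. An exonic CHH loss was listed in 611 of the 1300 genes (47%), against 8.06% of the 27558 genes named anywhere in the tables. An intronic CHG loss was listed in 260 (20%) against 7.83%, and an exonic CG loss in 137 (10.5%) against 2.08%. The exonic CHH and CG counts include losses that shared sequence with a member. Of such losses, 527 CHH and 92 CG losses were annotated to an exon. Those counts therefore do not show losses elsewhere in the gene. An exonic CG gain was listed in 43 (3.31%) against 1.68%, and an exonic CHG gain in 8 (0.615%) against 0.751%. Promoters differed less, with a CHG loss in 579 (44.5%) against 36.4% and a CHH loss in 928 (71.4%) against 68.1%. The 1300 genes are among the 27558, and the tables name no gene without a region. Gene length moves with such counts, and its part was not tested.

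Members were concentrated towards the chromosome ends, where tomato genes are dense. The outer 20% at either end of the chromosomes held 87.7% of exonic losses, against 78.0% of intronic, 81.7% of promoter and 65.9% of distal losses. The exonic share was higher than the intronic on 11 of 12 chromosomes, the promoter on 8 and the distal on 12. Exonic losses made up from 2.52% of the CHG losses of chromosome 2 (81 of 3214) to 6.81% of those of chromosome 12 (177 of 2600, interval 5.90% to 7.84%). Chromosome 12 also had the highest share of members with a CHH loss (59.3%), and chromosome 4 the lowest (42.2%).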

How the data were processed

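Bisulfite sequencing of embryo DNA was analysed from 3 nrpd1 and 3 WT libraries. Per the submitters' processing notes, the tools included Bismark 0.24.0 and Trim Galore 0.6.7. The sources used here do not name the region caller, its thresholds or the annotation tool. The design text speaks of RNA sequencing, but the series type and tables are of methylation. Incomplete bisulfite conversion would raise apparent methylation. The authors deposited 3 tables of differentially methylated regions, with each genotype's mean methylation as a fraction, printed here as a percentage, and a region statistic, a score used only to select regions. Coordinates are SL4.0 per the file headers' sequence names. Differences are nrpd1 minus WT. Listed regions spanned 50 bp or more, held at least 4 cytosines and differed by 10 points or more.

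Medians, counts, Wilson 95% intervals and SDs over 12 chromosomes were computed (Python 3.11.15, pandas 2.3.3, SciPy 1.17.1). Overlap meant at least 1 shared bp. No test was run, because no value per library exists here. The overlap routine alone was tested on simulated intervals. Named regions were those with the largest, smallest and widest losses, the lowest share left, losses in 3 contexts or a CG gain, and genes with most members. The members and lists were chosen with earlier results of these data known. No gene ID matched a name (0 of the IDs), so gene groups by function were not counted, and no genome sequence was used here.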

Additional observations from a re-analysis of the deposited data

How the results depend on the processing

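The tables allow no error over libraries, so these alternatives show only how the description moves. Of 1461 members, 1122 remained with differences of at least 20 points in every table, 1001 in the 50% of each table with the larger region statistic, 1132 with at least 10 cytosines, and 1459 without unplaced sequence, in 1021, 942, 1047 and 1298 genes. The exonic share of CHG losses was 3.49%, 5.47% and 5.33% under the first 3 of these. The WT median was 53.1% and the median difference -27.4 points with at least 20 points, and the difference was -26.9 points with the larger statistic. The CHH overlap was 10.3%, 35.6% and 54.6% under the same 3. With 20 points required of the CHG regions alone and the CHH list as deposited it was 59.0%, and the cause of the other moves was not tested. With at least 50% of the member covered, the CHH overlap was 44.6%, and with a CHH loss within 200 bp it was 54.0%. The CG loss overlap was 9.39% with the larger statistic, 9.45% with at least 10 cytosines, 5.82% with 50% covered and 13.1% within 200 bp. The CG gain overlap was 0% with the larger statistic and 0.616% within 200 bp. Counting exons as numbered in the tables, last exons held 12.7% of members instead of 28.7%. In the 1189 members wholly inside their gene, last exons held 19.1% and the CHH overlap was 47.7%. Matched on WT level, the share left differed from that in introns by -0.113, in promoters by 3.85 and in distal sequence by 1.70 points, and the CG overlap from that in promoters by -0.106 points. The limit on CHG alone, the restriction to the inside of genes, the exon numbering and matching for overlaps were chosen after seeing the data. No paired analysis was possible because the tables hold only a mean per genotype. Unknown read depth leaves the precision of single regions unknown.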
